A study of Mus musculus with 8 samples.

Results

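The cells described here are the control cultures of a study of muscle stem cells: the 4 arrays labelled as eGFP overexpression, of 8 arrays in the series. Satellite cells are the resident stem cells of skeletal muscle, and these came from hindlimb muscle of C57BL/6J mice 3 to 4 months of age. Sorted cells were kept in growth medium overnight and then received a lentivirus that integrates an eGFP cDNA, so the control carries a virus and a transgene product and is not an untouched culture. Cells positive for eGFP were sorted 5 days after transduction, and 0.1 ug of RNA was labelled with Cy3 for each 1-colour Agilent mouse array. The other 4 arrays carry Hoxa9-eGFP and are not compared with the controls here. The labels do not say whether the 4 control samples came from separate animals, so the spread between them may be partly technical.

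In resting muscle, satellite cells express the transcription factor Pax7 and stay out of the cell cycle. Placed in culture they become myoblasts, which divide and express Myod1, and part of them later express Myog, leave the cycle and fuse into multinucleated fibres that build sarcomeres. A bulk sample sums all these cells, so a lower level cannot be told apart as fewer cells of a type or less RNA per cell.

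Levels are log2 processed signal minus the 75th percentile of the same array, so that 0 is the signal at that percentile and a probe above it is among the brighter ones of its array. Each gene is given by its brightest probe. Brightness depends on the probe as well as on the transcript, so a level is read against background, against the whole array and between arrays, and the order of 2 genes says nothing of their abundance. The 4 control arrays had 69.6% to 73.0% of their non-control spots well above background, 75th percentiles of 514 to 779 signal units and no saturated spot. Pearson correlations between pairs of arrays, over 34876 gene names that are not independent replicates, ran from 0.979 to 0.989. Over genes above background on all 4 arrays the median SD between arrays was 0.27, and the median level of all gene names was -2.31. Replicates 1 and 2 lay on slide 1, replicate 3 on slide 2 and replicate 4 on slide 3. The array of replicate 1 had patches of spots with low signal, which are described with the genes of widest spread.

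Of the 34876 gene names, 24660 were well above background on all 4 arrays, which is 70.7% of them, and 6378 (18.3%) were above background on none. The other 3838 were above background on 1 to 3 arrays. Among the 22218 names that are RefSeq symbols, 72.9% were above background on all 4 arrays and 17.2% on none. These shares are the background against which the gene lists below are read: 70.7% for detection on every array, 18.3% for detection on none, and 32.3% for a mean level above 0. Among RefSeq symbols the share with a mean above 0 was 39.3%, and the median level was -1.44.

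All 6 genes chosen to mark these cells were above background on all 4 arrays. Pax7, the paired-box factor of satellite cells, stood at 2.74, 2.82, 2.38 and 2.25 on replicates 1 to 4, a mean of 2.55 ± 0.27 (SD, n = 4). Myod1, the factor that commits cells to the myogenic lineage, measured 5.10, 5.00, 4.50 and 4.61, with a mean of 4.81 ± 0.29 (SD, n = 4). Both were a little higher on replicates 1 and 2 than on replicates 3 and 4, without overlap. Myog, which drives differentiation, went the other way, with 6.04 and 5.83 on replicates 1 and 2 and 7.28 and 7.24 on replicates 3 and 4, a mean of 6.60 ± 0.77 (SD, n = 4). Des, the intermediate filament protein desmin of muscle cells, hardly varied, at 3.58, 3.48, 3.48 and 3.57. The labelled cell type and its markers thus did not conflict on any of the 4 arrays.

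Myf5, the factor that precedes or accompanies Myod1, was low on its array, at -2.37, -2.85, -2.52 and -2.33, a mean of -2.52 ± 0.24 (SD, n = 4). It was called above background on every array although its level lies below the median of all gene names. The array has 1 probe for it, and that probe is poor in G and C, which make up 15% of its 60 bases against a median of 43.3% over all probes. Probes with at most 30% G and C are 1.89% of the array and had a median level of -5.48, against -3.23 for all probes. Whether the probe's composition lowered the Myf5 signal was not tested. The last 30 bases of 3 marker probes, with G and C in capitals, show the contrast.
Pax7: tCatGCttttGtGaatCtGtCtGCtttGat
Myog: tGtttattGttttGtGtGttGtttGtaaaG
Myf5: aaatGtaCtattattatCaataaaatattt
The files place the Pax7 probe on the minus strand at chr4:139294364-139294423, the Myog probe on the plus strand at chr1:136188874-136188933 and the Myf5 probe on the minus strand at chr10:106919974-106920033, all in mm9.

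Mki67, the proliferation marker Ki-67, has 2 probes, and they did not order the arrays alike. The brighter gave 4.26, 4.40, 4.37 and 4.68, and the other gave 4.66, 4.45, 4.35 and 3.97. Their means, 4.43 ± 0.18 and 4.36 ± 0.29 (SD, n = 4), are close, so Ki-67 was well expressed on each array, but the difference between replicates 1 and 4 changes sign with the probe.

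**Figure D1:**
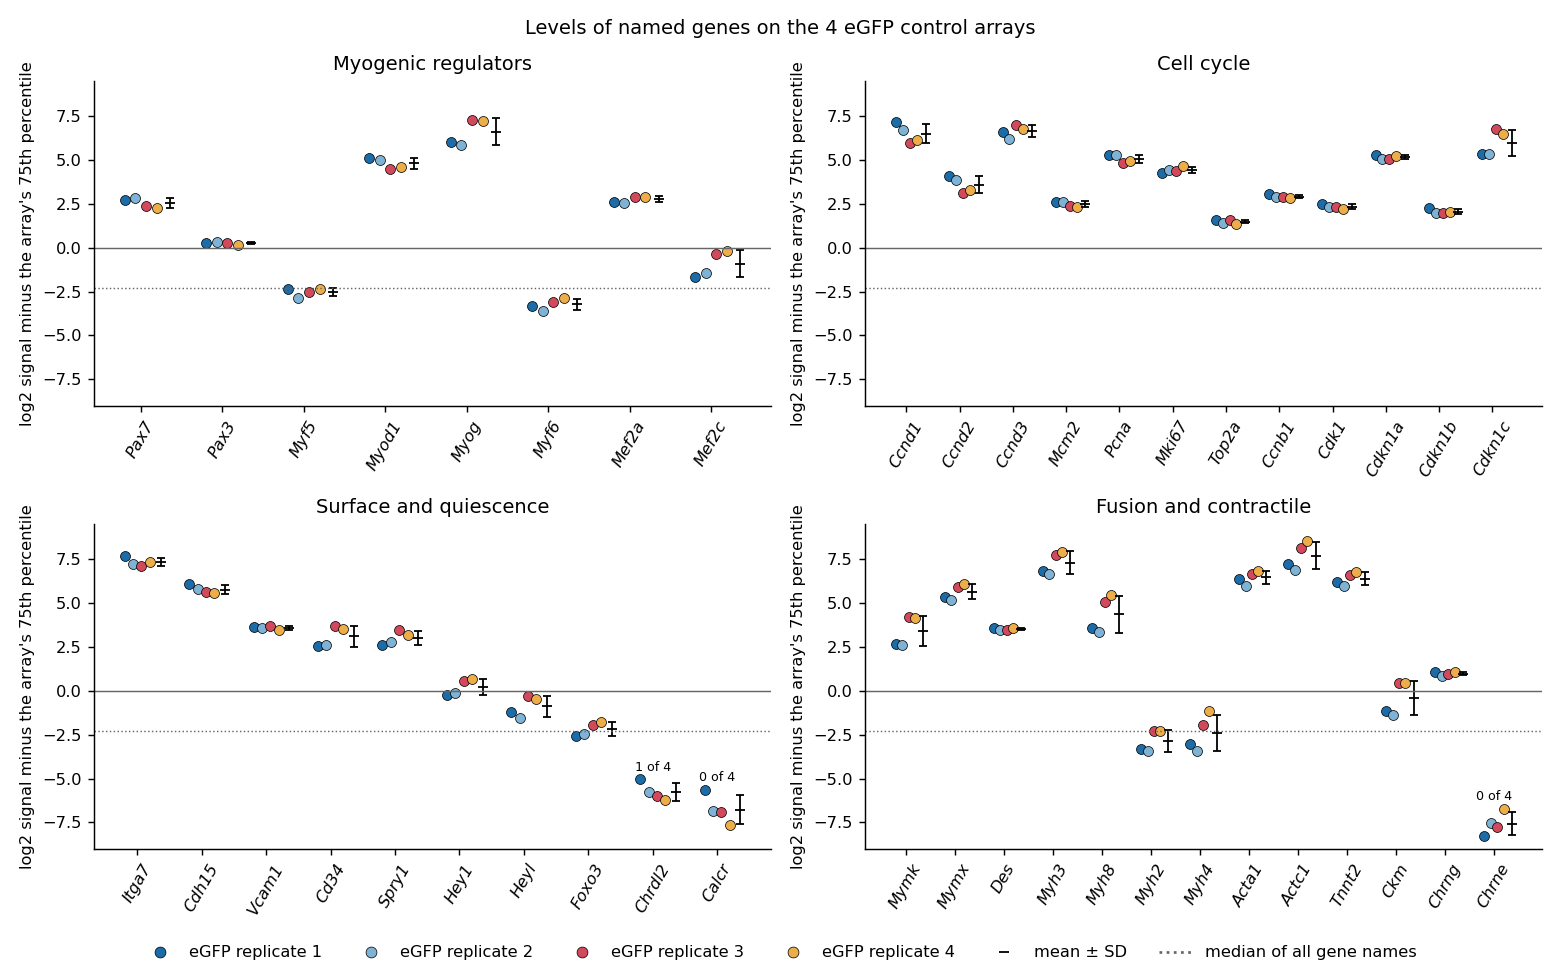
Level of each named gene (log2 signal minus the array's 75th percentile) on the 4 eGFP control arrays, 1 dot per array, with the mean and SD beside it, and counts of arrays above background where these are under 4. The 12 cell-cycle genes drawn and Itga7, Cdh15 and Vcam1 sit above 0, Calcr and Chrne are above background on no array, and Myog, Mymk, Cdkn1c and the myosins are higher on replicates 3 and 4.

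Of 20 myogenic regulators, 19 were above background on all 4 arrays, with a median level of 2.89. Pax3, the Pax7 relative that few limb satellite cells use, gave 0.28, 0.34, 0.25 and 0.18, while its other probe gave -1.23, -1.26, -2.03 and -1.97. Myf6, the factor of mature fibres, was low at -3.32, -3.58, -3.11 and -2.84. Mef2a, a MADS-box partner of the myogenic factors, was steady at 2.75 ± 0.17 (SD, n = 4). Mef2c, which increases in differentiating muscle, stood at -1.69 and -1.44 on replicates 1 and 2 and at -0.34 and -0.18 on replicates 3 and 4. The single undetected regulator was Msc, a repressor of the same helix-loop-helix family, with levels of -7.86, -7.20, -7.08 and -7.56 on its 1 probe. Id1, Id2 and Id3, inhibitors that hold back the myogenic factors, were all well above 0, at means of 5.01, 4.62 and 4.98.

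Surface and niche genes of satellite cells were all detected. All 23 were above background on all 4 arrays, 20 had a mean above 0, and the list median was 3.37. Itga7, the laminin-binding integrin subunit of muscle, was at 7.69, 7.24, 7.14 and 7.36. Cdh15, M-cadherin, read 6.10, 5.79, 5.64 and 5.59. Vcam1, an adhesion molecule used to sort satellite cells, was nearly constant at 3.62, 3.59, 3.68 and 3.46, although its other probe read -0.39 ± 0.14 (SD, n = 4). The chemokine receptor Cxcr4 was below 0, at -1.63 ± 0.73 (SD, n = 4).

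The quiescence list, of genes linked to the resting state, was split. Of its 28 members 25 were above background on all 4 arrays, 16 had a mean above 0, and the median was 0.25, or -0.27 with the mean of all probes of a gene. Calcr, the calcitonin receptor of resting satellite cells, was above background on no array, with -5.66, -6.85, -6.88 and -7.66. Chrdl2, a secreted BMP antagonist, passed on 1 array only, with -5.04, -5.78, -6.01 and -6.23. Col15a1, a basement membrane collagen, passed on 2 arrays, with -5.82, -5.16, -3.42 and -5.02. These 3 are the members that missed background on at least 1 array.

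Other members of that list were plainly present. Cd34, a surface sialomucin, measured 2.54, 2.63, 3.72 and 3.53. Spry1, a feedback inhibitor of growth factor signalling, measured 2.63, 2.77, 3.49 and 3.17. In both, replicates 3 and 4 lay above replicates 1 and 2, but a second Cd34 probe, at -3.66, -3.36, -2.99 and -3.74, did not show that order. The Notch targets Hey1 (-0.21, -0.13, 0.54 and 0.67) and Heyl (-1.22, -1.54, -0.30 and -0.45) were nearer the middle of the array and kept that order. Foxo3, a transcription factor of quiescent stem cells, was lower, at -2.58, -2.47, -1.94 and -1.76. Foxo1, of the same family, ran the other way, at 2.69, 2.56, 1.84 and 1.95. Of the 28 members, 14 had replicates 3 and 4 both above replicates 1 and 2 and 6 had the opposite order, beside 28.9% and 31.0% of all gene names. Gene by gene, the list held both transcripts near background and transcripts well above it.

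Genes of DNA replication and mitosis were detected without exception. All 27 replication genes on the array were above background on all 4 arrays, 21 of them with a mean above 0, and their median level was 3.25. Mcm2, a subunit of the replicative helicase, gave 2.62, 2.63, 2.38 and 2.31. Pcna, the sliding clamp of the polymerases, gave 5.26, 5.26, 4.80 and 4.93. Each was lower on replicates 3 and 4, by less than 0.5 of a log2 unit.

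All 30 mitosis genes were likewise above background on all 4 arrays, with 27 means above 0 and a median of 2.17. Cdk1, the kinase that starts mitosis, was at 2.51, 2.34, 2.31 and 2.20. Its cyclin Ccnb1 was at 3.05, 2.88, 2.88 and 2.84, and the topoisomerase Top2a at 1.56, 1.44, 1.56 and 1.37. The highest and lowest arrays differed by 0.32 for Cdk1, 0.21 for Ccnb1 and 0.19 for Top2a. The members below 0 were Aurkb, Cenpf and Ttk, at -3.90, -4.11 and -3.29, and the Aurkb probe is 20% G and C.

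Cyclins of the G1 phase and the inhibitors that oppose them were present side by side. All 16 genes of this list were above background on all 4 arrays, with a median of 2.91. Ccnd1, cyclin D1, was at 7.18, 6.71, 5.97 and 6.16, and Ccnd2 at 4.11, 3.88, 3.11 and 3.28, both higher on replicates 1 and 2. Ccnd3, the D cyclin that persists in differentiating myoblasts, was at 6.61, 6.21, 6.98 and 6.77, higher on replicates 3 and 4. A second Ccnd3 probe, at 5.52, 5.19, 5.35 and 5.18, did not show that order, so the order of Ccnd3 rests on 1 of its 2 probes.

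Cdkn1a, the inhibitor p21, was at 5.30, 5.05, 5.05 and 5.20, while its other 2 probes read 1.09 and -1.60. Cdkn1b, p27, was at 2.25, 1.95, 1.95 and 2.04, while its other probe read -3.16, -2.66, -2.10 and -2.22. Cdkn1c, p57, was at 5.35 and 5.36 on replicates 1 and 2 and at 6.76 and 6.47 on replicates 3 and 4. On the brightest probes of the 3, p57 is the one whose replicates split as those of Myog did. The other p27 probe also had replicates 3 and 4 above replicates 1 and 2. Cdkn2a, which encodes p16 and p19Arf, was at 4.35, 4.23, 4.25 and 4.73, while its other probe had a mean of -0.48. Rb1, the retinoblastoma protein that G1 kinases inactivate, was at 2.20, 2.02, 2.32 and 2.39.

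Fusion and contractile genes were expressed in the same cultures. All 14 fusion genes were above background on all 4 arrays, with a median of 3.04. Mymk (myomaker), a membrane protein that fusion requires, was at 2.68, 2.63, 4.19 and 4.17, and its partner Mymx (myomixer) at 5.37, 5.21, 5.92 and 6.10. Both were higher on replicates 3 and 4, Mymk by 1.53.

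Of 52 genes of the sarcomere and of terminal differentiation, 49 were above background on all 4 arrays and 40 had a mean above 0, with a median of 3.16. The forms of the embryo were among the bright ones. Myh3, embryonic myosin heavy chain, was at 6.83, 6.64, 7.78 and 7.94. Actc1, the actin of heart and developing muscle, was at 7.23, 6.91, 8.14 and 8.56. Tnnt2, the troponin T of heart and embryonic muscle, was at 6.23, 5.96, 6.63 and 6.77, and Acta1, the adult skeletal actin, at 6.41, 6.01, 6.68 and 6.82. In all 4 genes the highest value came from replicate 4 and the lowest from replicate 2.

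Myosins of the adult fast fibre differed among themselves. Myh1, the IIx form, was at 3.11, 3.00, 4.73 and 5.19 on its 1 probe. Myh2 was at -3.33, -3.42, -2.28 and -2.30 and Myh4 at -3.01, -3.43, -1.93 and -1.17. Myh8, the perinatal form, was at 3.60, 3.34, 5.05 and 5.46 on its brightest probe, but its other 3 probes had means of -1.11 to -4.19. Ckm, muscle creatine kinase, was at -1.14, -1.36, 0.46 and 0.46. The acetylcholine receptor showed the fetal subunit and not the adult one. Chrng, the gamma subunit of fetal receptors, was at 1.07, 0.85, 0.97 and 1.06, and Chrne, the epsilon subunit that replaces it in the adult, was above background on no array, with -8.29, -7.50, -7.77 and -6.73.

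**Figure D2:**
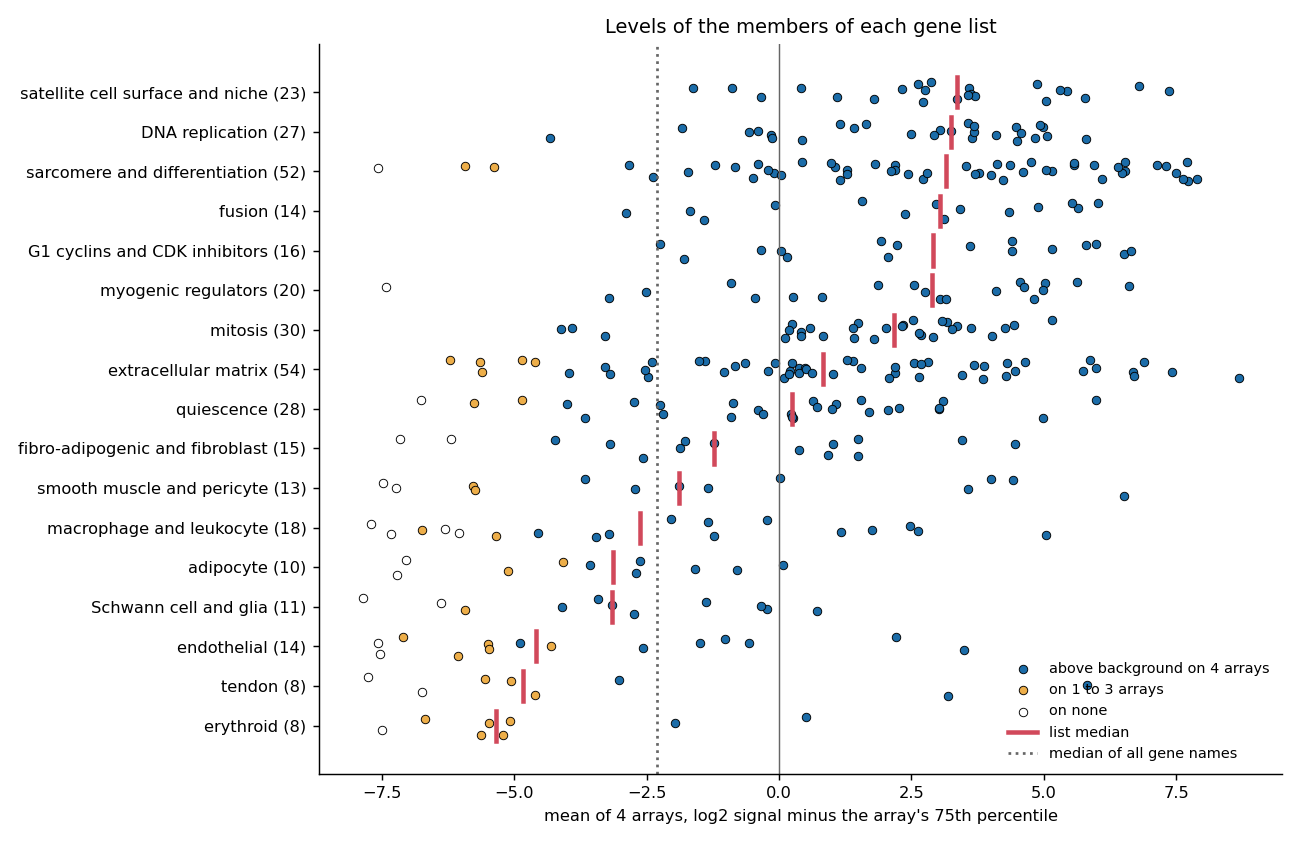
Mean level over the 4 eGFP control arrays (log2 signal minus the array's 75th percentile) of each member of 17 gene lists, the number on the array in brackets, coloured by the number of arrays on which the gene was above background. The medians of the muscle and cell-cycle lists lie between 2.17 and 3.37, that of quiescence at 0.25 and those of the other cell types below 0.

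Matrix genes covered the whole range of the array. Of 54, 49 were above background on all 4 arrays, none was at background on every array, 36 had a mean above 0, and the median was 0.82. Sparc, a collagen-binding glycoprotein, was at 8.83, 8.31, 8.53 and 9.02 and was the only member of the list among the 100 brightest genes. Fn1, fibronectin, was steady at 5.86, 5.84, 6.18 and 6.04. The basement membrane was represented by Col4a1 at 3.18, 2.97, 2.34 and 2.12 and by Lama2, the laminin chain of muscle, at 2.44, 2.15, 2.05 and 2.16. Col4a1 was lower on replicates 3 and 4.

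The fibrillar collagens differed among themselves across the arrays. Col1a2 was at 4.44, 4.41, 4.78 and 4.94 and Col3a1 at 3.42, 3.34, 3.38 and 3.68. Col1a1 was at 0.70, 0.31, 1.68 and 1.40, a difference of 1.03 between replicates 3 and 4 and replicates 1 and 2, against 0.43 for Col1a2, whose product pairs with it in type I collagen. Postn, periostin, was at -2.17, -3.40, -1.98 and -2.34, an uneven set in which replicate 2 was lowest.

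Markers of other cells had list medians below 0, which for the fibro-adipogenic, smooth muscle and tendon lists turned to 0.38, 0.018 and 3.18 when only probes above background on every array were used. The 15 fibro-adipogenic and fibroblast genes had a median of -1.24, above the -2.31 of all gene names and near the -1.44 of RefSeq symbols. Of them 7 had a mean above 0, beside 32.3% of all gene names and 39.3% of RefSeq symbols. Above background on all 4 arrays were 13, beside 70.7% and 72.9%. Dpp4, a surface peptidase, was above background on none. Pdgfra, the receptor that defines fibro-adipogenic progenitors, was at -1.76, -2.28, -1.33 and -2.11. Ly6a, Sca-1, was at -2.11, -2.03, -0.37 and -0.44, and Dcn, decorin, at -0.31, -0.52, 1.5 and 0.88. The last 2 were higher on replicates 3 and 4, and 4 of the 15 genes (Dcn, Lum, Col1a1 and Col3a1) also stand in the matrix list.

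Smooth muscle and pericyte genes, 13 in number, had a median of -1.88, above the -2.31 of all gene names but below the -1.44 of RefSeq symbols. Of them 5 had a mean above 0, beside 32.3% of all gene names and 39.3% of RefSeq symbols. Lmod1 and Kcnj8 were above background on no array. Acta2, smooth muscle actin, was nonetheless bright at 6.5, 6.03, 6.82 and 6.70, as was Tagln, transgelin, at 4.37, 4.29, 4.79 and 4.25. Both are among the 5 with a mean above 0, and which cells of the culture gave these signals was not tested. Of the more selective genes of contractile smooth muscle, Myh11 and Myocd each passed on 2 arrays only, at means of -5.78 and -5.73.

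Endothelial genes had a median of -4.59, with 7 of 14 above background on all 4 arrays and Tie1 and Emcn on none. Pecam1 was at -1.54, -0.97, -0.89 and -0.64, and Cdh5, the cadherin of endothelial junctions, at -4.07, -5.48, -3.40 and -4.26 with 3 arrays above background. The 2 members with a mean above 0 were Egfl7 and Kdr. Egfl7, a secreted protein of endothelium, was at 2.26, 2.08, 2.24 and 2.28 on its 1 probe. Kdr, the main receptor for VEGF, has 2 probes, which read 3.50 and -5.31.

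In the macrophage and leukocyte list, 12 of 18 genes were above background on all 4 arrays, the median was -2.63, and Ptprc, Lyz2, Tyrobp and Cd3g were above background on none. Ptprc, the CD45 common to white blood cells, was at -6.41, -5.63, -5.74 and -6.36. Cd68, a lysosomal protein abundant in macrophages, was at 0.38, 0.29, -1.13 and -0.48. The 5 members with a mean above 0 were Itgam, Csf1r, Laptm5, Nkg7 and Cd3e. Laptm5, a lysosomal membrane protein of blood cells, was bright on both its probes, at means of 2.47 and 1.83, each above background on all 4 arrays. Cd3e, a T cell receptor chain, was at 0.70, 0.91, 1.29 and 1.79 on its 1 probe. The probes of the other genes were apart. Itgam, CD11b, had a mean of 5.04 where its other 2 probes gave -3.21 and -3.83, and Csf1r, the receptor for macrophage growth factor, had 2.61 where its others gave -0.24 and -2.26. For Nkg7 the probes gave 1.75 and -7.76, the latter above background on no array.

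Schwann cell, adipocyte, erythroid and tendon lists had medians of -3.15, -3.13, -5.34 and -4.83. S100b was above background on no array, at -7.12, -5.73, -7.01 and -5.68, and so were Foxd3, the adipocyte genes Plin1 and Cfd, the beta globin Hbb-b1 and the tendon genes Tnmd and Kera. Adipoq, adiponectin, passed on 2 arrays, at -5.99, -4.60, -4.40 and -5.46. The tendon factor Scx was bright, at 6.07, 5.96, 5.56 and 5.67, and was 1 of 2 tendon genes with a mean above 0. The Schwann cell, adipocyte and erythroid lists each had 1 gene with a mean above 0. Above background on all 4 arrays were 8 of 11 Schwann cell, 6 of 10 adipocyte, 2 of 8 erythroid and 3 of 8 tendon genes, beside 70.7% of all gene names. Each of these lists also held at least 1 gene above background on no array.

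The main division among the control arrays was between replicates 1 and 2 and replicates 3 and 4, and the contractile genes showed it most. The mean of the 52 sarcomere genes was 2.24 on replicate 1, 2.14 on replicate 2, 3.12 on replicate 3 and 3.48 on replicate 4, a difference of 1.12. In 45 of the 52 replicates 3 and 4 both exceeded replicates 1 and 2, against 28.9% of all gene names. Another scaling moves the share of all gene names in that order, to 18.8% with a median shift and 53.7% with normexp background correction, while the sarcomere count stayed at 40 and 43. For 32 of the 52 the difference of means was also at least 1, against 6.75% of all gene names. The exceptions in the opposite direction were Actn3, Chrnb1 and Eno3, which were lower on replicates 3 and 4 by 0.31, 0.69 and 0.54.

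Members of that list moved by very different amounts. Neb, the giant ruler protein of the thin filament, was at 3.07, 3.80, 5.80 and 5.78. Dmd, dystrophin, was at -2.61, -2.43, -0.18 and 0.41. Tcap, a Z-disc cap of titin, was at 1.26, 1.03, 2.91 and 3.52. Against these, Tpm1, a tropomyosin also made by cells outside muscle, was at 7.62, 7.57, 7.78 and 7.86, and Chrna1, the alpha subunit of the acetylcholine receptor, at 7.58, 7.54, 7.34 and 7.55. Another Tpm1 probe ran the opposite way, at 4.44, 4.36, 3.73 and 3.63, and a further probe overlapped, at 1.74, 1.82, 1.82 and 1.25. The rest of the Tpm1 probes had replicates 3 and 4 both above replicates 1 and 2. For Ttn, titin, the probe decides: the brightest gave 5.51, 5.37, 5.57 and 5.82, while another gave 3.42, 3.84, 5.34 and 5.70.

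Cell-cycle genes ran in the opposite direction by less. The mean of the replication genes was 2.73, 2.63, 2.31 and 2.22 on replicates 1 to 4, and 21 of the 27 had replicates 1 and 2 both above replicates 3 and 4, against 31.0% of all gene names. The mean of the mitosis genes was 1.80, 1.76, 1.59 and 1.43, with 18 of 30 in that order. With a median shift these counts were 23 and 24, beside 42.9% of all gene names, with normexp 20 and 17, beside 23.8%, and with quantile normalization 20 and 14, beside 32.7%. The median difference over all gene names, 0.02 here, was -0.19 with the median shift and 0.21 with normexp. In neither list did any gene differ by as much as 1, a size that 3.34% of all gene names reached. Tpx2, a spindle assembly factor, came nearest, at 2.37, 2.19, 1.54 and 1.08.

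Markers of other cells were compared across the same arrays. The mean of the fibro-adipogenic and fibroblast list was -1.34, -1.42, -0.55 and -0.69 on replicates 1 to 4, with 9 of 15 genes higher on both replicates 3 and 4 and 0 lower, against the 28.9% and 31.0% of all gene names, and that of smooth muscle and pericyte genes was -1.53, -1.73, -1.15 and -0.91, with 7 of 13 higher and 3 lower. Endothelial genes stood at -3.64, -3.64, -3.08 and -3.45, with 4 of 14 higher and 3 lower, a share near that of all gene names. Macrophage and leukocyte genes stood at -2.57, -2.27, -2.38 and -2.22, with 7 of 18 higher and 6 lower, also not far from it. The part of these cells in the sarcomere and cell-cycle differences was not tested.

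Slide and experiment number coincide among the controls, since replicates 1 and 2 shared slide 1. The Hoxa9-eGFP arrays, taken by themselves, were placed otherwise, with replicate 4 on slide 1, replicates 1 and 2 on slide 2 and replicate 3 on slide 3. There, 47 of the 52 sarcomere genes again had replicates 3 and 4 both above replicates 1 and 2, against 22.7% of all gene names. For the cell-cycle lists that order was not seen there, with replicates 1 and 2 both above replicates 3 and 4 in 0 of 27 replication genes and 0 of 30 mitosis genes, against 20.3% of all gene names. On Hoxa9-eGFP replicates 1 to 4 the mean of the replication genes was 1.03, 0.97, 1.37 and 0.86. That of the mitosis genes was -0.03, -0.16, 0.55 and -0.29. Among the controls slide and number cannot be told apart, and whether either underlies the differences of any list was not tested.

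**Figure D3:**
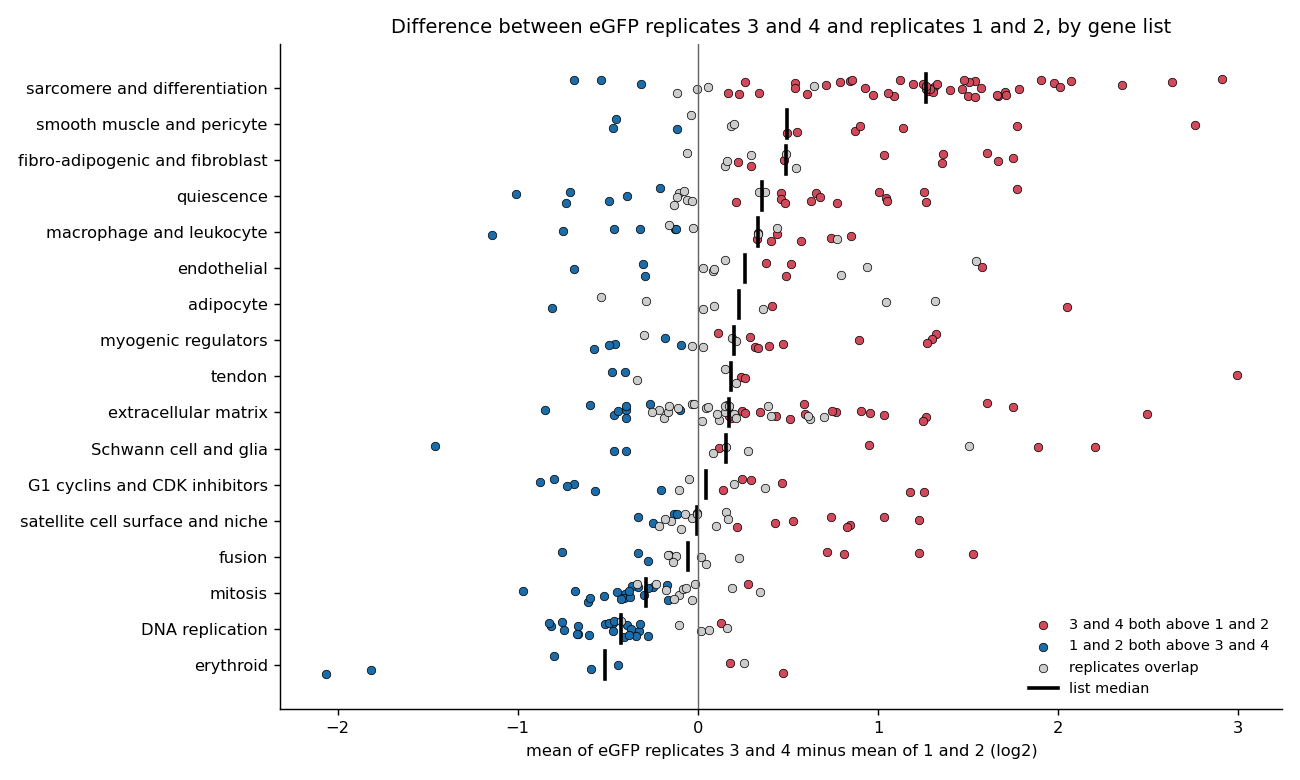
Difference between the mean of eGFP replicates 3 and 4 and the mean of replicates 1 and 2 (log2), 1 dot per gene of each list, coloured where the pairs do not overlap. The median is 1.27 for the sarcomere list and -0.43 for the replication list, beside 0.02 for all gene names.

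The 100 brightest genes with a RefSeq symbol are described in 2 sets, split by probe sequence. In 75 the probe held none of 4 words described below, and 39 of these encode ribosomal proteins. The 20 brightest include Rpl35, Rps20, Rps24, Rpl9, Rplp1, Rplp2 and Rplp0, all between 8.95 and 9.14, with Actb, cytoplasmic beta actin, at 9.27, 8.86, 9.09 and 9.66 and Tpt1, a translationally controlled protein, at 9.07 ± 0.17 (SD, n = 4). Near-identical copies of ribosomal protein genes share such probes' targets, so their levels are uncertain as single genes. Where a gene in this set of 75 had another probe, as 52 did, the gap to the next probe was 0.75 at the median.

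The other 25 genes were bright on a probe that shares a stretch of sequence with probes of other genes. Looking for 12-letter words common to the 100 brightest probes, on both strands, gave 4 words that together occur in 25 of the 100 and in 0.0864% of all 55548 probes. The words were chosen as the most shared among these same 100 probes. Their excess there over all probes is therefore fixed by the choice and is no separate evidence. GTCTGAAGACAG was in 10 of the 100 and 20 of all probes (0.0360%), ACAGCCAGGGCT in 6 and 15 (0.0270%), CTGCCCAAGAAG in 6 and 8 (0.0144%), and GGCTCACAACCA in 3 and 5 (0.00900%). The probes below are printed to show what they share, as 30 bases of each 60-base probe with the word in capitals.
Kctd14: agttccaggACAGCCAGGGCTatacaaaaa
Glrx2: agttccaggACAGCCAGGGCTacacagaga
Elk1: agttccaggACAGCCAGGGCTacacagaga
Exosc2: ccacatggtGGCTCACAACCAtccgttacg
Milr1: ccacatggtGGCTCACAACCAaccataata
Pirb: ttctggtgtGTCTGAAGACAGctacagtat
Ppm1k: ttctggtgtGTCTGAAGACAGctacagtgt
H2ac12: gccgtgctgCTGCCCAAGAAGaccgagagc
H2aj: gccgtgctgCTGCCCAAGAAGacggagagc
The shared letters run beyond the word in each set, and Glrx2 and Elk1 are the same over all 30 bases although the files place them on chromosomes 1 and X. The first 3 sets lie in genes of unrelated function, and the stretches resemble B1 and B2, short repeats present in many copies of the mouse genome. The last set is of histone H2A genes, whose coding sequences are nearly alike.

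These probes were far brighter than other probes of the same genes. Kctd14, a channel-domain protein, was at 9.44, 9.31, 9.52 and 9.59 on the probe with the word, and its other 2 probes had means of -4.97 and -7.10, the second above background on no array. Elk1, an ETS factor, was at 9.14, 8.82, 9.51 and 9.41, against -2.09 on its other probe. Pirb, a receptor of leukocytes, had a mean of 8.87 against -5.68 and -7.51. Of the 18 such genes with another probe, 14 had a gap of at least 5 and the median gap was 8.51.

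Further genes among the 20 brightest had the same disparity without any of the words. Slc10a1, a bile acid transporter of the liver, was the brightest gene at 9.99, 9.39, 9.46 and 9.65, and its other probe gave -4.71. Ttc38 was at 9.30 ± 0.32 (SD, n = 4) against -1.62 at most on its other 3 probes. Zfp628, a zinc finger protein, was at 9.02 against 0.90, and its bright probe is 86.7% G and C. Rn4.5s, a small RNA made by RNA polymerase III, had 1 probe and none of the words. What these probes hybridised with was not tested, and the named genes cannot be called abundant from them.

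**Figure D4:**
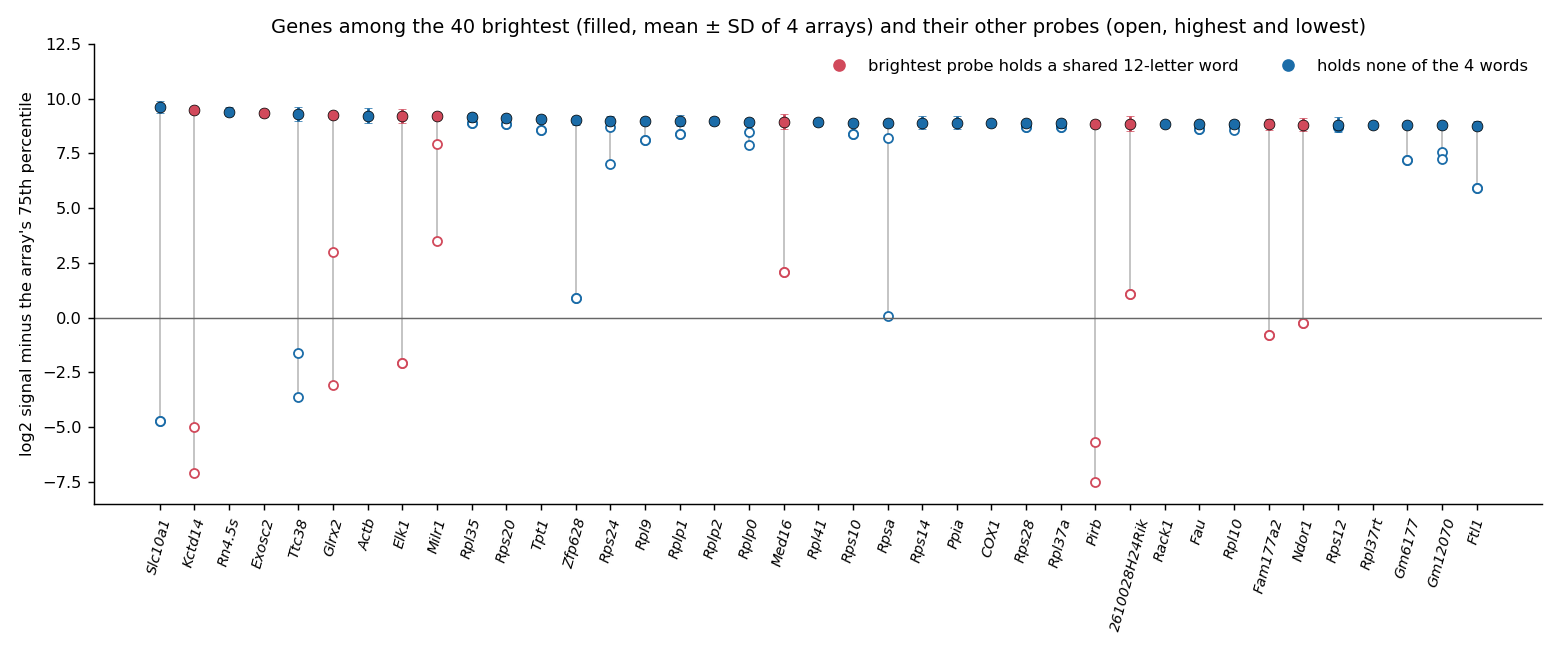
Genes among the 40 brightest, in order, each with its brightest probe (filled, mean and SD of the 4 eGFP control arrays) and the highest and lowest of its other probes (open), as log2 signal minus the array's 75th percentile. Ribosomal protein genes mostly have their other probes close by, whereas Kctd14, Elk1 and Pirb have theirs below 0.

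Disagreement between probes was not confined to the brightest genes. Among 4810 RefSeq symbols with at least 2 probes above background on all 4 arrays, the highest and lowest probe differed by 2.32 at the median, and by 5 or more in 14.1%. Over all probes of RefSeq symbols above background on all 4 arrays, the SD between arrays was 0.27 at the median. An SD and a difference of highest and lowest are unlike measures. Repeated spots of a probe within an array had median SDs of 0.11 to 0.17, against 0.24 for the same kind of probes between arrays. The SDs within an array are over single spots, whereas those between arrays are over probe values that already average their spots.

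The genes of widest spread were set largely by 1 array. Of the 12 RefSeq symbols above background on all 4 arrays with the largest range, 10 had their spot on replicate 1 within 1 of 3 patches of that array, which hold 15.6% of its probes. The patches were drawn after the positions of low spots were seen, so that count is no separate evidence for them. Zfp219, a zinc finger factor, was at -7.18 on replicate 1 and at -0.46, -1.08 and -1.14 on the others. Stk19 was at -4.74 against 1.57, 0.96 and 1.04, and Hira, a histone chaperone, at -4.82 against 1.33, 0.71 and 0.65. Replicate 1 was also the low array for 1600014C10Rik, Ceacam20, Batf2, Gphn, Pdzd11 and Fam3c.

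Across the array, 285 probes were more than 2 below the median of the other 3 arrays on replicate 1 while above -4 on each of those, against 36, 25 and 43 on replicates 2, 3 and 4. Of the 285, 247 lay in the 3 patches, which were drawn after the positions were seen. The same positions held 20 of the 36 on replicate 2, 1 of the 25 on replicate 3 and 3 of the 43 on replicate 4. Of 349 probes that stand for list genes, 62 lay in a patch and 2 of these were among the low ones, those of Dmd and of the adipocyte gene Lep. A probe of Dmd other than its brightest also placed replicates 3 and 4 above replicates 1 and 2, with -2.92, -2.81, -0.88 and -0.39. Another Dmd probe, above background on 2 arrays, had the opposite order, with -3.82, -3.88, -5.86 and -4.67. The rest of its 5 probes kept the first order. When the patches' probes were left out, 41 sarcomere genes had replicates 3 and 4 both above replicates 1 and 2, beside 29.0% of all gene names. The opposite order was seen in 18 replication and 12 mitosis genes, beside 30.7% of all gene names. With all probes these counts were 45, 21 and 18. Without the patches' probes some genes had another probe or none. The number left in each list is not given here, so these counts cannot be read as shares.

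**Figure D5:**
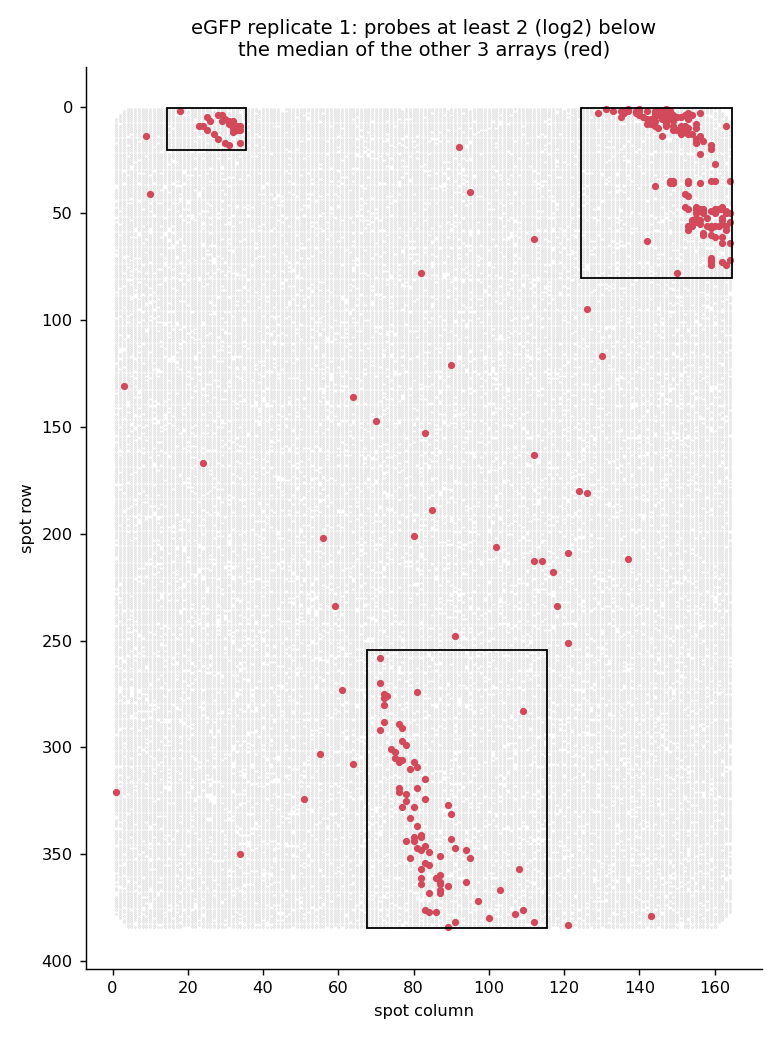
Position by row and column of every probe on the array of eGFP replicate 1. Red dots are the 285 probes more than 2 (log2) below the median of the other 3 arrays, and the boxes are the 3 patches, which hold 247 of them.

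Outside the patches the widest gene was Syt10, a synaptotagmin, at 3.37 and 3.13 on replicates 1 and 2 and at -3.28 and -3.02 on replicates 3 and 4. Mirg, a noncoding RNA of an imprinted cluster, was at 2.73, 2.21, -2.30 and -2.31 on its brightest probe, while its other 2 probes ran the opposite way, with -1.38, -1.59, -0.65 and -0.36 on the first of them. Il1rl1, the receptor of interleukin 33, was at -2.66, -3.13, 1.02 and -0.05, and a second probe gave the same order. Sgip1, an adaptor protein of endocytosis, is the last of the 12 and lies in a patch, with replicate 3 alone high at -0.77 against -5.58, -4.13 and -3.78.

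Sex-linked transcripts, looked at after their values were seen, were alike on the 4 arrays. Xist, which silences 1 X chromosome in female cells, was at 2.22, 2.26, 2.62 and 2.76, and the Y-linked genes Ddx3y, Eif2s3y, Kdm5d and Uty were above background on no array.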

How the data were processed

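Total RNA of 8 samples was measured on 1-colour Agilent mouse arrays, and levels come from the 4 eGFP arrays. The deposited scanner tables hold processed intensity, mean and background intensity for each spot and detection marks, made with Agilent Feature Extraction 10.7.3.1 per the submitters' processing notes. A deposited series table holds a score for each probe; its columns differ from the log2 processed intensity computed here by a near-constant shift (median -0.011 to -0.016), with column medians of -3.38, -3.24, -3.12 and -3.09. Spots marked as outliers were left out, spots of a probe were averaged, and values were scaled by subtracting, on each array, the 75th percentile of the probes that are not controls, leaving 55548 probes. A gene takes its probe of highest mean, and it is above background where any probe is. Probe positions are mm9, as the files give them. Names follow RefSeq (GRCm38 table, names only) for 27656 probes matched by accession, of which 1711 changed name.

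One group has no comparison of conditions and no test was run, so values are array levels with mean and SD. Arrays give no count depth; their number limits precision. Genes named were the markers, the 20 brightest symbols, list genes above background on no array, the 12 symbols of widest range and fixed list members. Other genes were named after their values were seen, among them Id1 to Id3, Foxo1, Col15a1, Myh1, Ttk, Neb, Dmd, Tcap, Tpm1, Ttn, Tpx2, Scx, Kdr, Egfl7, Itgam, Csf1r, Laptm5, Cd3e, Nkg7, Pirb, Ppm1k and Il1rl1. The members and lists were chosen with earlier results of these data known. Alternatives were other scalings, normexp background correction, the mean of all probes, only probes above background on all 4 arrays, the series table and leaving out each array. Leaving out the patches' probes or the probes with shared words was added after the data were seen. Python 3.11.15, numpy 2.4.6, pandas 2.3.3, R 4.3.3 and limma 3.58.1 were used, and the steps were tested on simulated data. Some genes that the naming rule selects are not reported here, and the plot of the brightest genes leaves such a gene out.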

Additional observations from a re-analysis of the deposited data

Results flagged for a closer look

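In 8 of 96 named genes 1 array stood far from the other 3, and in each it was replicate 1, at the low end. The gap to the nearest array, as a share of the whole range, was 0.9 for Zfp219, 0.904 for Stk19, 0.889 for Hira, 0.886 for 1600014C10Rik, 0.941 for Ceacam20, 0.966 for Gphn, 0.833 for Pdzd11 and 0.954 for Fam3c. Chance alone marks about 1 in 20 groups in this way, and these genes were named for their wide range, which makes such a gap more likely. All 8 spots lie in the patches of low signal on that array, which were drawn after the positions were seen. None of the 17 list means had such a gap.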

How the results depend on the processing

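Of 418 alternative values for 36 results, 355 stayed within a set limit, 59 moved further and 4, all list medians, crossed 0: quiescence with the mean of all probes, and fibro-adipogenic, smooth muscle and tendon with detected probes alone. The limit was the SD between arrays for levels and a factor of 1.5 for counts, shares and the median SD. Differences between replicate pairs had their standard error as the limit, and the median difference over all gene names had a fixed limit. Detection counted over RefSeq mRNA accessions alone was 14980 genes on all 4 arrays and 3191 on none. With a median shift, replicates 3 and 4 minus 1 and 2 was 0.91 for sarcomere, -0.62 for replication, -0.47 for mitosis and 0.55 for fibro-adipogenic genes. With quantile normalization it was -0.30 for replication and -0.17 for mitosis. With normexp, Pax7 was 2.26, Myf5 -1.97 and Des 3.41, and list medians were 3.09 (surface), 2.81 (fusion), 2.79 (G1), -1.46 (smooth muscle), -2.91 (endothelial), -1.95 (leukocyte), -2.28 (Schwann), -2.28 (adipocyte), -3.06 (erythroid) and -2.96 (tendon). With the mean of all probes they were 1.66 (myogenic), 2.34 (surface), -0.27 (quiescence), 2.43 (sarcomere), 2.08 (replication), 1.2 (mitosis), 1.94 (G1), 0.43 (matrix), -3.25 (leukocyte) and -4.08 (adipocyte). Restricted to probes detected on every array, which leaves out dim genes, they were 0.65 (quiescence), 1.39 (matrix), 0.38 (fibro-adipogenic, difference 0.86), 0.018 (smooth muscle), -1.01 (endothelial), -0.73 (leukocyte), -2.06 (Schwann), -2.11 (adipocyte), -0.72 (erythroid) and 3.18 (tendon). Without the patches' probes they were 2.76 (surface), 1.45 (mitosis, difference -0.18), 2.82 (G1), 1.02 (matrix), -1.77 (fibro-adipogenic), -0.66 (smooth muscle), -4.88 (endothelial), -3.76 (Schwann) and -3.58 (adipocyte). Leaving out 1 array gave 2.81 to 2.98 (G1), 3.24 to 3.43 (surface) and -3.47 to -2.74 (Schwann). Where no construction explains a move, the cause was not tested. No paired analysis was possible because no groups were compared. Signal near background limits the dim lists.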
